A study of Homo sapiens with 4 samples.

Results

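The proteasome subunit genes were taken as every listed gene whose symbol is PSMA, PSMB, PSMC, PSMD, PSME, PSMF or PSMG followed by a number. The rule found 48 of the 26364 genes listed in each sample. RNA-seq had been carried out on BE(2)C cells, a human neuroblastoma line in which the MYCN oncogene is amplified. The 2 control samples (Ctrl) had received a non-targeting siRNA, and the 2 MYCN knockdown samples (MYCN KD) an siRNA against MYCN. The labels give 80 nM siRNA with a lipid transfection reagent for 6 h in all 4 samples (the study's methods state a lower final siRNA concentration), total RNA taken on the next day, and the genotypes wild type for Ctrl and MYCN kd for MYCN KD. A single cell line was used, and its labels do not say whether the replicates of a condition came from separate cultures. The p-values therefore measure only the spread between these samples.

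The proteasome is the protease complex that degrades proteins tagged with ubiquitin. Its core particle is a barrel of stacked rings, in which alpha subunits form the gates and beta subunits carry the proteolytic sites. A regulatory particle caps the barrel. Its base of ATPases unfolds the substrate and threads it into the core, and its lid removes the ubiquitin. Dedicated chaperones assemble both particles and leave before or when the complex is finished. Other activators can cap the core in place of the regulatory particle, and interferon-induced beta subunits can replace the constitutive ones to give the immunoproteasome. MYC proteins, of which MYCN is the one amplified in neuroblastoma, are transcription factors that drive growth and protein synthesis in tumour cells.

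MYCN itself, the target of the siRNA, measured 1068 and 1073 RPKM in the Ctrl samples, beside 720.2 and 718.0 RPKM in the MYCN KD samples. RPKM are reads scaled for gene length and library size, so levels can be compared between genes. The log2 fold change of MYCN was -0.57 (95% interval -0.66 to -0.49, limma adjusted p = 0.00361), and the knockdown was partial. After quantile normalization it was -0.38 (limma adjusted p = 0.00830, from 2.39e-06 to 0.00830 over the alternatives). All 8 of 8 sympathoadrenal neuroblast markers were measured at a mean RPKM of 1 or more, against 1 of 4 haematopoietic, 2 of 4 endothelial or fibroblast and 0 of 4 epithelial markers. The summed RPKM of the neuroblast markers was 1353 and 1251 in Ctrl, compared with 1988 and 2163 after the knockdown, and the part of this difference in the results below was not tested. In bulk RNA, fewer cells that express a gene and less RNA per cell cannot be told apart. The deviations of the replicates from their group mean mirrored each other in the 2 conditions, with a correlation of -0.98 over 11411 genes. For 44 of the 44 tested proteasome genes, replicate 1 lay above replicate 2 in one condition and below it in the other, as it did for 99.4% of all tested genes. The authors had removed unwanted variation before deposit, and its part in this pattern was not tested.

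Of the 48 genes, 44 had a mean RPKM of at least 1 over the 4 samples and were tested. On log2(RPKM + 1), the knockdown left 13 lower and 2 higher at an adjusted p under 0.05, and 29 did not pass. The lower genes were 29.5% of those tested, beside 22.8% of all 11411 tested genes that were lower. The higher genes were 4.55%, beside 25.3% of all tested genes. Both MYCN KD values lay below both Ctrl values for 31 of the 44 genes (70.5%), where 35.8% of all tested genes did so. Both lay above for 2 of the 44 (4.55%), where 40.4% of all tested genes did so, and the values of the other 11 overlapped. The median log2 fold change of the 44 genes was -0.14, beside 0.03 for all tested genes, whose quartiles were -0.23 and 0.29. Log2 fold changes were below 0 for 39 of the 44 genes, and for 30 of them when each sample was rescaled to the same total or quantile normalized.

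**Figure D1:**
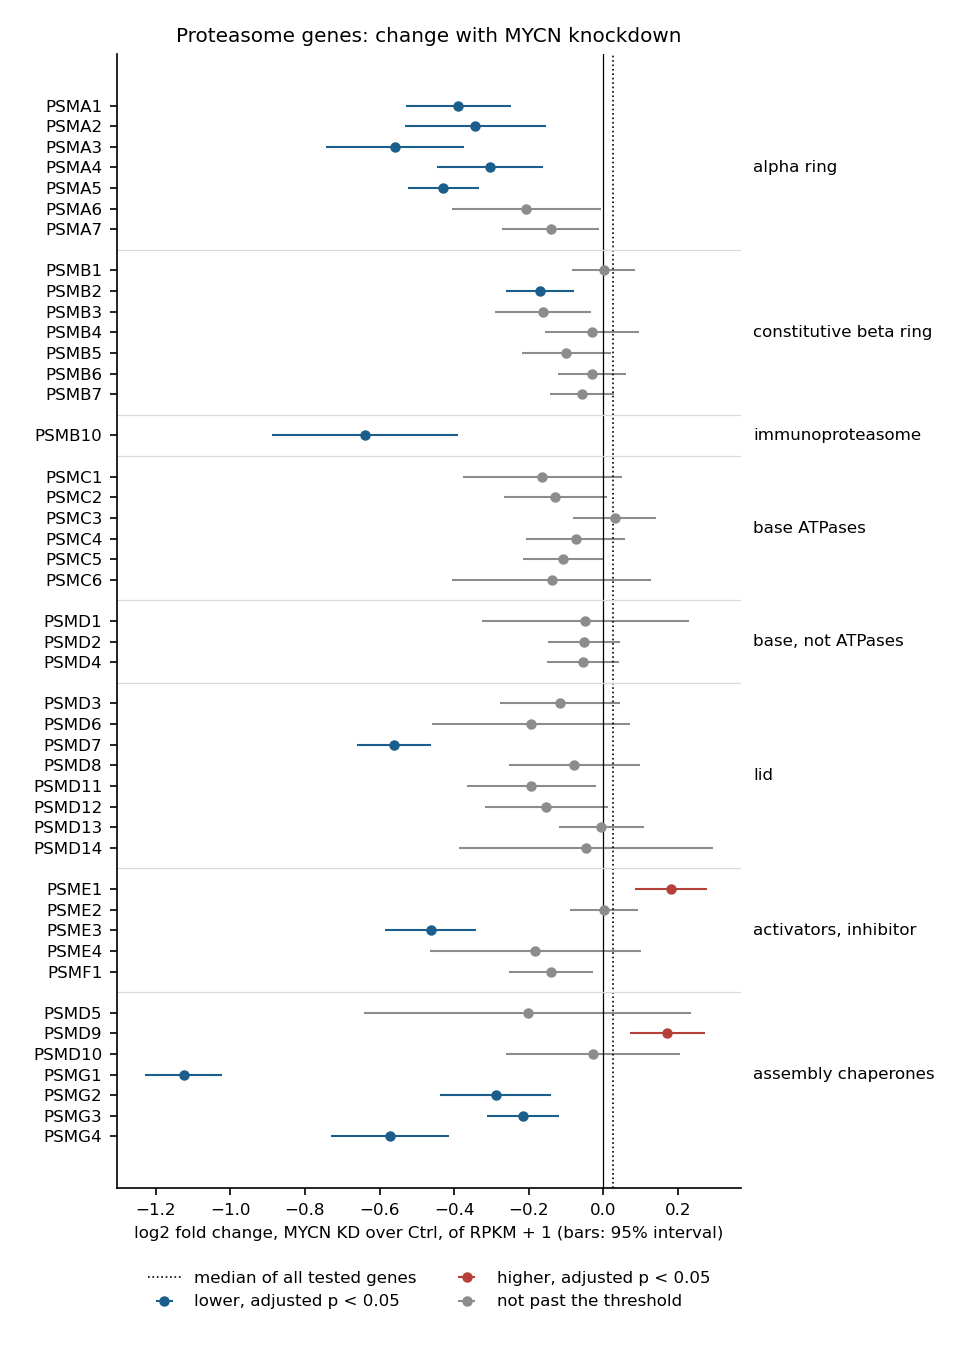
Log2 fold change of RPKM + 1 (x axis, MYCN KD over Ctrl, with its 95% interval) of the 44 tested proteasome genes, grouped by their place in the complex. The 13 genes in blue were lower and the 2 in red higher at an adjusted p under 0.05. PSMG1 at -1.13 stands farthest from 0, and the base holds no coloured gene.

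Summed over all 48 genes, RPKM was 5258 and 5253 in Ctrl, then 4758 and 4771 upon knockdown of MYCN. The mean sum changed by -9.34% with the knockdown. Proteasome genes took 1.21% and 1.23% of the summed RPKM of all listed genes in Ctrl, and 1.17% and 1.14% in MYCN KD. The summed RPKM of all listed genes was itself lower in MYCN KD, at 408304 and 417284 against 435126 and 426148 in Ctrl. By recovered read numbers, tested members held from 358 to 22095 reads in a sample.

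**Figure D2:**
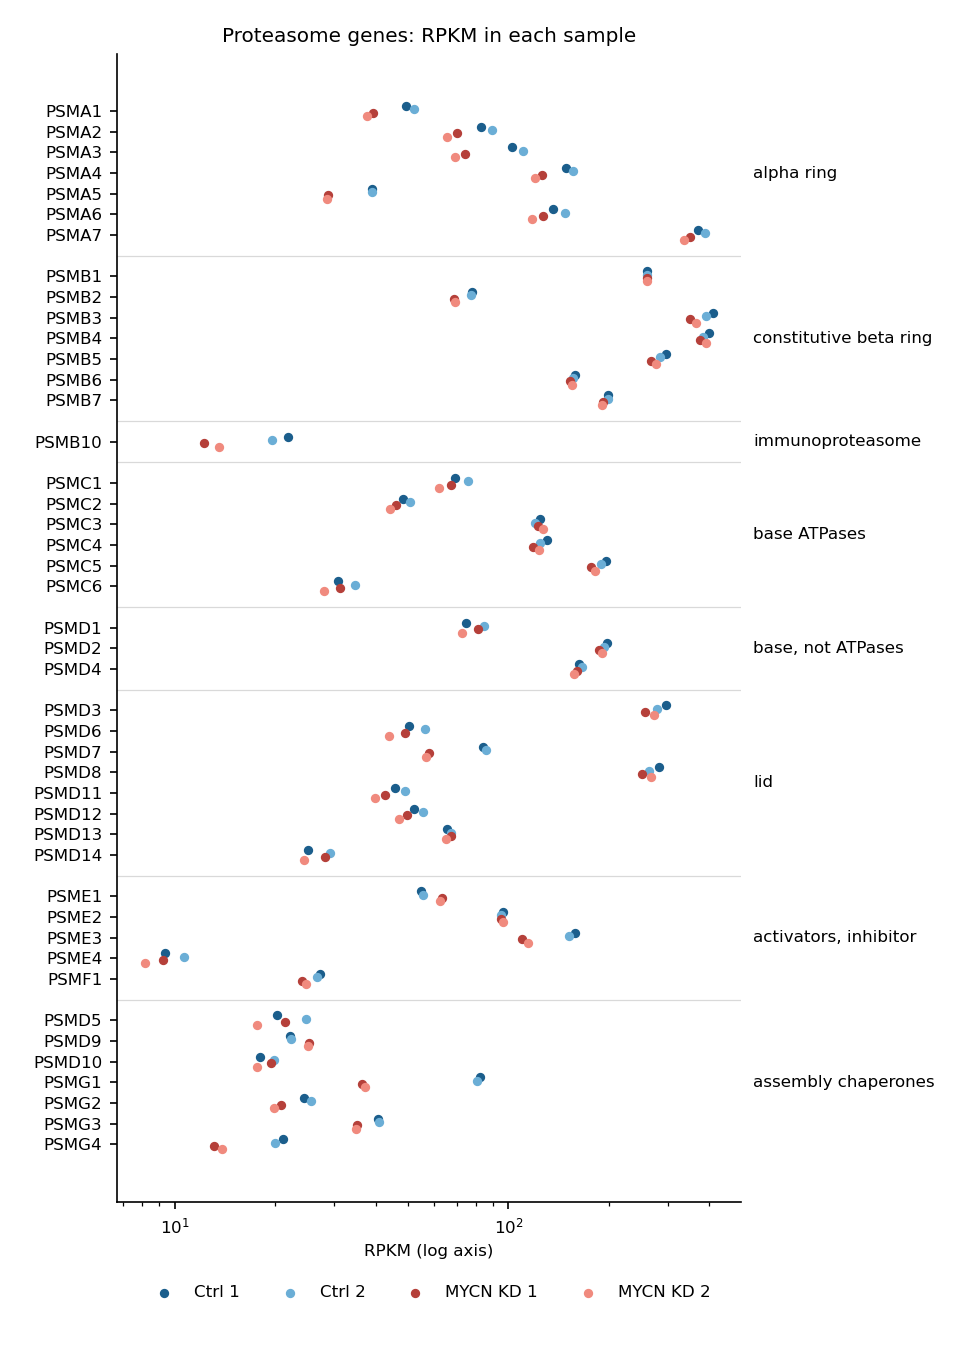
RPKM (x axis, log scale) of the 44 tested proteasome genes in each of the 4 samples, grouped by their place in the complex. Levels ran from a Ctrl mean of 10.0 RPKM for PSME4 to 400.1 RPKM for PSMB3, and the samples of a condition lay close together for most genes.

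The alpha ring, which gates the core, was lower in 5 of its 7 tested genes, beside 22.8% of all tested genes. PSMA3 (chromosome 14, 58711561 to 58738730, plus strand) showed the largest change of the ring, with 102.4 and 110.2 RPKM in Ctrl, against 74.3 and 69.3 RPKM after MYCN knockdown. Its log2 fold change was -0.56 ± 0.06 (SE, n = 2 per group, limma adjusted p = 0.00900), and the 2 groups did not overlap. PSMA5 (-0.43), PSMA1 (-0.39), PSMA2 (-0.34) and PSMA4 (-0.30) fell as well, with limma adjusted p from 0.00510 to 0.0242. PSMA6 (-0.21, limma adjusted p = 0.0810) and PSMA7 (-0.14, limma adjusted p = 0.0737) did not pass the test. For each, both MYCN KD values lay below both Ctrl values, as they did for 35.8% of all tested genes. PSMA6 passed without Ctrl replicate 1 (-0.26, limma adjusted p = 0.0492). PSMA7, the most abundant of the ring, measured 370.3 and 387.4 RPKM in Ctrl, compared with 350.7 and 336.1 RPKM after the knockdown. The log2 fold changes of all 7 were below 0 under each scaling tried, with a ring median of -0.34 as deposited, -0.28 at a common total and -0.28 after quantile normalization. PSMA2 did not pass under either scaling, with limma adjusted p from 0.00287 to 0.0580 over the alternatives. PSMA4 did not pass without MYCN KD replicate 2, with a log2 fold change of -0.27 at its weakest of the 4 fits and a limma adjusted p of up to 0.0505 when a sample was left out. PSMA8, an alpha subunit of the testis, was listed at 0 in all 4 samples, which allows up to 3 reads in each by counting error alone.

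In the constitutive beta ring, which holds the catalytic sites, 1 of 7 genes was lower, beside 22.8% of all tested genes. PSMB2, a subunit without a catalytic site, measured 78.0 and 77.3 RPKM in Ctrl, then 68.6 and 69.2 RPKM upon knockdown of MYCN, a log2 fold change of -0.17 (95% interval -0.26 to -0.08, limma adjusted p = 0.0235). This call was lost under both scalings. It was also lost in each fit that left out 1 sample, although the log2 fold change stayed at -0.18 to -0.16. PSMB1 had nearly the same level in all samples as deposited, with 260.1 and 259.8 RPKM in Ctrl, against 259.9 and 260.4 RPKM after MYCN knockdown. Its log2 fold change of 0.00 had a 95% interval of -0.08 to 0.09. At a common total it was 0.06, and after quantile normalization PSMB1 was a higher call at 0.14 (limma adjusted p = 0.0253, from 0.0253 to 0.999 over the alternatives). The ring's median was -0.06 as deposited, and it was 0.00 at a common total and 0.01 after quantile normalization.

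The 3 catalytic subunits of the constitutive ring did not pass the test. PSMB5, which carries the chymotrypsin-like site, measured 296.3 and 285.3 RPKM in Ctrl, compared with 266.4 and 276.5 RPKM after the knockdown (log2 fold change -0.10, 95% interval -0.22 to 0.02). PSMB6, with the caspase-like site, measured 158.3 and 156.4 RPKM in Ctrl, then 153.0 and 155.0 RPKM upon knockdown of MYCN (-0.03, -0.12 to 0.06). PSMB7, with the trypsin-like site, measured 198.4 and 199.3 RPKM in Ctrl, against 191.3 and 190.7 RPKM after MYCN knockdown (-0.06, -0.14 to 0.03). For each of these genes both MYCN KD values lay below both Ctrl values, as they did for 35.8% of all tested genes. A log2 fold change of 0 lay inside each interval. PSMB3 and PSMB4 had log2 fold changes of -0.16 and -0.03. PSMB3 was a lower call after quantile normalization (-0.13, limma adjusted p = 0.0275, from 0.0275 to 0.371 over the alternatives). The alpha ring's summed RPKM was 0.52 and 0.56 of that of the constitutive beta ring in Ctrl, compared with 0.49 and 0.45 after the knockdown. The alpha sum was 928.3 and 981.6 RPKM in Ctrl, then 816.9 and 775.1 RPKM upon knockdown of MYCN, a change of -16.6%, and the beta sum changed by -5.05%.

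Of the beta subunits of the immunoproteasome and the thymus, only PSMB10 reached the mean RPKM needed for the test. It takes the place of PSMB7 in the immunoproteasome. PSMB10 measured 21.8 and 19.6 RPKM in Ctrl, against 12.3 and 13.6 RPKM after MYCN knockdown, so that the groups did not overlap. Its log2 fold change was -0.64 ± 0.09 (SE, n = 2 per group, limma adjusted p = 0.0122), the largest fall among genes of the core particle. The ratio of PSMB10 to PSMB7 was 0.11 and 0.10 in Ctrl, compared with 0.06 and 0.07 after the knockdown. PSMB9, which replaces PSMB6, was listed at 0 in all samples. PSMB8, which replaces PSMB5, was listed at 0 in 3 samples and at 0.0023 RPKM in MYCN KD replicate 2. PSMB11, the beta subunit of the thymus, was listed at 0 in both Ctrl samples and at 0.018 and 0.017 RPKM in the MYCN KD samples. The recovery gave 1 read for each of these values above 0. It takes the smallest whole numbers that match, so the true numbers may be higher.

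PSMB8 and PSMB9 lie in the MHC region of chromosome 6, where few genes were measured. Within 1000000 bases of these genes (chromosome 6 from 31808494 to 33827628 on GRCh37), 4 of 69 listed protein-coding genes (5.80%) had a mean RPKM of 1 or more, and 22 were at 0 in all samples. Elsewhere on chromosome 6 outside 28 to 34 Mb it was 386 of 725 (53.2%), and on other chromosomes 55.8%. For genes of the interval with a read in each sample, the gene length behind the RPKM was recovered as the smallest that gave whole reads. It was a median of 3.53 times the GENCODE exon length, against 0.781 elsewhere on the chromosome and 0.682 on other chromosomes. The part of this in the 0 values was not tested. PSMB10 lies on chromosome 16, from 67968409 to 67970767 on the minus strand, and is outside that region.

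In the regulatory particle, none of the 9 genes of the base passed the test, where 22.8% of all tested genes were lower and 25.3% higher. Both the 6 ATPases PSMC1 to PSMC6, which form the unfolding ring, and the 3 other subunits gave 0 calls in limma at an adjusted p and 0 at an unadjusted p under 0.05, and also 0 calls with limma voom on the recovered reads. The log2 fold changes of the ATPases ran from -0.16 for PSMC1 to 0.03 for PSMC3. PSMC1 measured 69.3 and 75.8 RPKM in Ctrl, then 67.4 and 61.9 RPKM upon knockdown of MYCN (95% interval -0.38 to 0.05). PSMC3 measured 124.0 and 120.3 RPKM in Ctrl, against 122.9 and 126.6 RPKM after MYCN knockdown, and its groups overlapped. Reads of PSMC1 may include those of its 13 named pseudogenes and of NRDE2. In GENCODE the exons of NRDE2 overlap it by 4667 bases on the opposite strand. The recovered length behind the RPKM of PSMC1 was only 1586 bases, so how much of the overlap was counted is not known.

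The base subunits without ATPase activity lay close to 0. PSMD1, a scaffold, had the highest log2 fold change of the 3, -0.05, with 74.8 and 84.3 RPKM in Ctrl, compared with 81.2 and 72.4 RPKM after the knockdown. PSMD4, a ubiquitin receptor, had the lowest, also -0.05, with 163.0 and 166.3 RPKM in Ctrl, then 160.1 and 157.1 RPKM upon knockdown of MYCN. PSMD2, the other scaffold, was at -0.05. The log2 fold changes of these 3 genes turned to between 0.01 and 0.05 when the samples were rescaled to the same total or quantile normalized.

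In the lid, 1 of 8 genes was lower, beside 22.8% of all tested genes. PSMD7 (chromosome 16, 74330712 to 74340186, plus strand), which pairs with the deubiquitinase PSMD14, measured 83.9 and 85.6 RPKM in Ctrl, against 57.6 and 56.6 RPKM after MYCN knockdown. Its log2 fold change was -0.56 ± 0.03 (SE, n = 2 per group, limma adjusted p = 0.00414), and the call held under all 12 alternatives. The other 7 lid genes did not pass. They ran from -0.19 for PSMD6 and PSMD11 to -0.01 for PSMD13, with 8 of 8 lid genes below 0 as deposited and 6 of 8 under either scaling. PSMD13 measured 65.3 and 67.4 RPKM in Ctrl, compared with 67.1 and 65.1 RPKM after the knockdown. For PSMD14, the partner of PSMD7, RPKM was 25.2 and 29.3 in Ctrl, then 28.2 and 24.4 upon knockdown of MYCN, with overlapping groups. The ratio of PSMD7 to PSMD14 was 3.33 and 2.92 in Ctrl, against 2.04 and 2.32 after MYCN knockdown. PSMD7 and PSMD14 act as a pair in the complex, and in these samples only the first passed the test (the difference between their changes was not tested).

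Among the 5 factors that cap or inhibit the core, 1 was lower and 1 higher, beside 22.8% and 25.3% of all tested genes. PSME3 (chromosome 17, 40976402 to 40995777, plus strand) encodes PA28gamma, the nuclear activator that forms a ring of its own. It measured 157.7 and 151.8 RPKM in Ctrl, compared with 109.9 and 114.2 RPKM after the knockdown, with no overlap. Its log2 fold change was -0.46 ± 0.04 (SE, n = 2 per group, limma adjusted p = 0.00646), and its mean RPKM fell by 27.6%. PSME3 shares 300 exon bases with BECN1 on the opposite strand, and BECN1 measured from 16.5 to 18.4 RPKM across the samples.

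PSME1 and PSME2 encode the subunits of the interferon-induced activator PA28. PSME1 measured 54.7 and 55.4 RPKM in Ctrl, then 63.0 and 62.1 RPKM upon knockdown of MYCN, and rose by a log2 fold change of 0.18 (95% interval 0.09 to 0.28, limma adjusted p = 0.0225). The call was lost when any 1 sample was left out, although the log2 fold change stayed at 0.17 to 0.19. PSME1 overlaps EMC9 by 9 exon bases. PSME2, its partner, measured 95.96 and 94.9 RPKM in Ctrl, against 95.1 and 96.1 RPKM after MYCN knockdown, a log2 fold change of 0.00 (95% interval -0.09 to 0.09). PSME3 stood at 2.89 and 2.74 times the level of PSME1 in Ctrl, compared with 1.74 and 1.84 times after the knockdown.

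PSME4 and PSMF1 did not pass the test. PSME4, which encodes the activator PA200, measured 9.37 and 10.7 RPKM in Ctrl, then 9.25 and 8.17 RPKM upon knockdown of MYCN (log2 fold change -0.18, 95% interval -0.46 to 0.10). PSMF1, the inhibitor PI31, measured 27.3 and 26.6 RPKM in Ctrl, against 24.1 and 24.7 RPKM after MYCN knockdown (-0.14, -0.25 to -0.03, limma adjusted p = 0.0545). Both MYCN KD values lay below both Ctrl values for each of these, as they did for 35.8% of all tested genes.

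The assembly chaperones held the largest change of any tested member. All 4 PSMG genes were lower over all 4 samples as deposited, beside 22.8% of all tested genes. With a block by replicate number 2 of the 4 were lower, beside 1851 of all 11411 tested genes. The products of the PSMG genes act on the core. POMP, another chaperone of the core that lies outside the symbol rule, was not lower past the test (log2 fold change -0.03). PSMG1 and PSMG2 form the dimer PAC1 and PAC2, on which the alpha ring is built. PSMG1 (chromosome 21, 40546695 to 40555414 on the minus strand of GRCh37) measured 82.2 and 80.5 RPKM in Ctrl, compared with 36.3 and 37.2 RPKM after the knockdown. Its log2 fold change was -1.13 ± 0.04 (SE, n = 2 per group, 95% interval -1.23 to -1.02, limma adjusted p = 0.00359), and RPKM fell by 54.8%. Of the 11411 tested genes, 82 had a log2 fold change at or below that of PSMG1, itself included, and 1.25% were at -1 or below. PSMG2 measured 24.3 and 25.7 RPKM in Ctrl, then 20.8 and 19.8 RPKM upon knockdown of MYCN (-0.29, limma adjusted p = 0.0215). PSMG2 did not pass without Ctrl replicate 2 or without MYCN KD replicate 2, where limma adjusted p reached 0.120, nor at a common total (-0.23, limma adjusted p = 0.0571). PSMG1 stood at 3.38 and 3.14 times the level of PSMG2 in Ctrl, against 1.75 and 1.88 times after MYCN knockdown.

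PSMG3 and PSMG4 form the other chaperone dimer of the alpha ring. PSMG4 measured 21.2 and 20.02 RPKM in Ctrl, compared with 13.2 and 13.9 RPKM after the knockdown, and its log2 fold change was -0.57 ± 0.05 (SE, n = 2 per group, limma adjusted p = 0.00679). PSMG3 measured 40.6 and 41.0 RPKM in Ctrl, then 35.1 and 34.8 RPKM upon knockdown of MYCN (-0.22, limma adjusted p = 0.0159). Without any 1 of the samples the call of PSMG3 was lost, although the log2 fold change stayed at -0.22 to -0.21. In GENCODE, PSMG4 shares 174 exon bases with TUBB2B and 1388 with SLC22A23 on the opposite strand. The recovered length behind the RPKM of PSMG4 was only 1042 bases, so how much of these overlaps was counted is not known. TUBB2B measured 59.4 and 62.9 RPKM in Ctrl, against 82.8 and 78.3 RPKM after MYCN knockdown, and whether the counting used strand is not given in the sources used here, so that reads in the overlap cannot be told apart. Summed over PSMG1 to PSMG4, RPKM was 168.3 and 167.2 in Ctrl, compared with 105.4 and 105.7 after the knockdown, a change of -37.1%.

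Of the 3 members that are chaperones of the base, none was lower past the test over all 4 samples, where 22.8% of all tested genes were lower. PAAF1, a base assembly factor outside the symbol rule, was lower (log2 fold change -0.46, limma adjusted p = 0.0222). It measured 8.83 and 7.94 RPKM in Ctrl, and 5.53 and 6.15 RPKM after MYCN knockdown. PSMD9 measured 22.1 and 22.3 RPKM in Ctrl, then 25.3 and 25.04 RPKM upon knockdown of MYCN, and rose by a log2 fold change of 0.17 (95% interval 0.07 to 0.27, limma adjusted p = 0.0281). That call was also lost in each fit that left out 1 sample, although the log2 fold change stayed at 0.16 to 0.18. PSMD5 measured 20.3 and 24.8 RPKM in Ctrl, against 21.3 and 17.6 RPKM after MYCN knockdown. Its replicates differed more than those of any other tested member, by 0.28 in Ctrl and 0.26 in MYCN KD on log2(RPKM + 1), and its log2 fold change of -0.20 had an interval of -0.64 to 0.24. PSMD5 was a lower call without Ctrl replicate 1 (-0.34, limma adjusted p = 0.0262) and without MYCN KD replicate 1 (-0.33, limma adjusted p = 0.0366), and stood at -0.06 and -0.07 without either of the other samples. PSMD10, also known as gankyrin, measured 17.96 and 19.8 RPKM in Ctrl, compared with 19.4 and 17.6 RPKM after the knockdown, with a log2 fold change of -0.03 and overlapping groups.

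**Figure D3:**
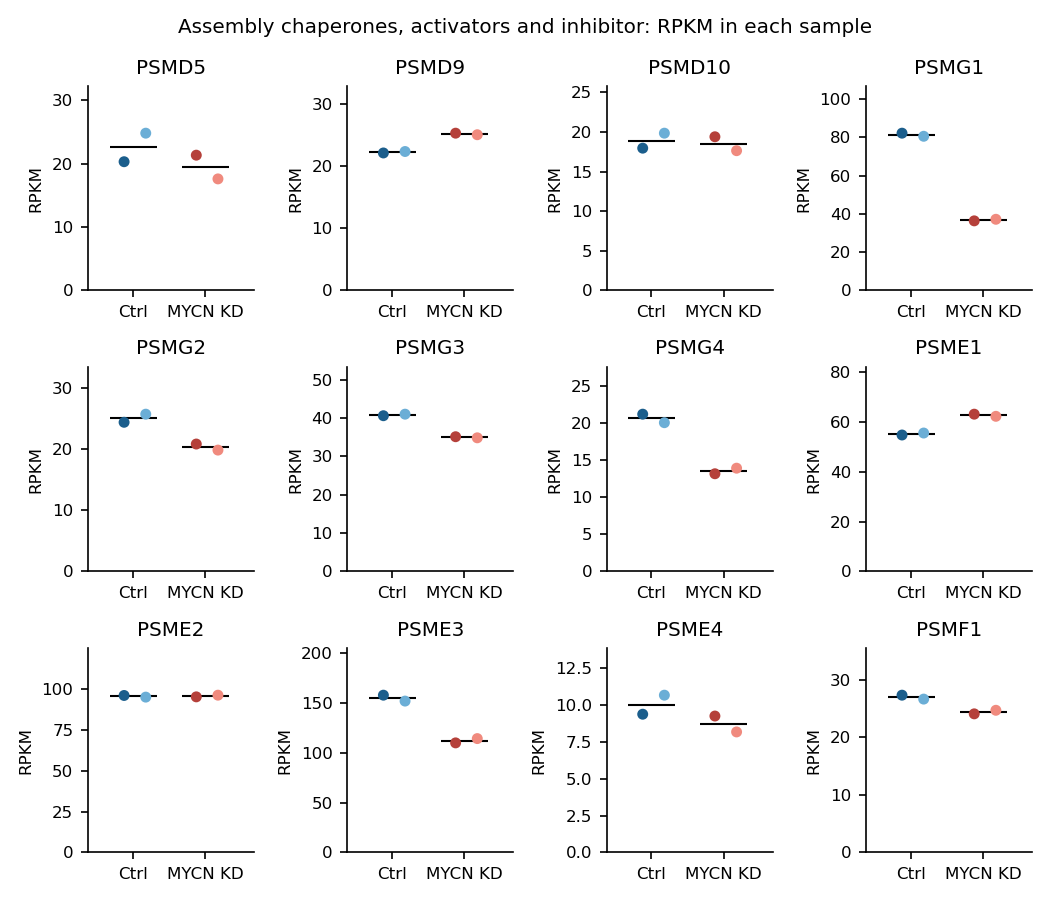
RPKM (y axis, from 0) of the 7 assembly chaperones and the 5 activators and inhibitor in the 2 Ctrl samples (blue) and the 2 MYCN KD samples (red), with group means as lines. PSMG1 fell from a mean of 81.4 to 36.8 RPKM, and PSMD9 and PSME1 are the only panels of the 12 in which both MYCN KD values lie above both Ctrl values.

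By class, the summed RPKM in MYCN KD was 97.3% and 95.5% of the Ctrl mean for the base subunits other than ATPases, and 94.2% and 94.8% for the base ATPases. For the constitutive beta ring it was 93.7% and 96.2%. The lid stood at 89.7% and 91.5%, and the alpha ring at 85.5% and 81.2%. For the assembly chaperones it was 74.1% and 71.7%, and for the immunoproteasome class, in which PSMB10 gave nearly all RPKM, 59.2% and 65.9%. With every sample set to the same total of listed RPKM, the sums of both base classes overlapped between the conditions, at 99.3% and 97.8% for the ATPases and 102.6% and 98.5% for the others in MYCN KD. The constitutive beta ring was then at 98.8% and 99.3%, and the alpha ring at 90.2% and 83.7%.

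**Figure D4:**
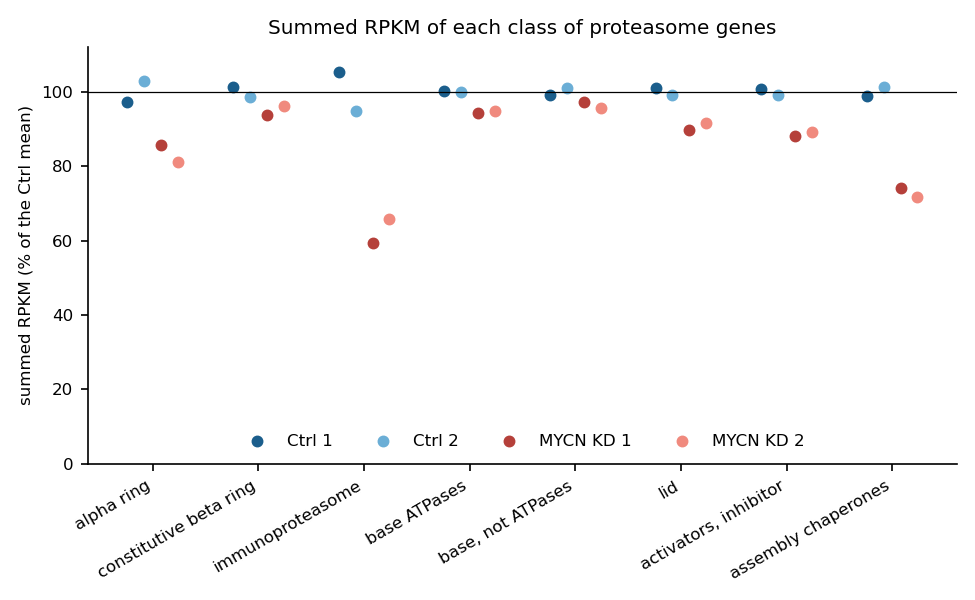
Summed RPKM of each class of proteasome genes (y axis, percent of the Ctrl mean of that class, from 0) in each of the 4 samples. As deposited, both MYCN KD sums lie below both Ctrl sums in all 8 classes, with the alpha ring at 85.5% and 81.2% and the constitutive beta ring at 93.7% and 96.2%. At a common total of listed RPKM, the sums of the 2 base classes overlap.

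Promoter sequence was set beside these changes, because MYC proteins bind the E-box and the factor NFE2L1 drives proteasome genes through antioxidant response elements. RefSeq (GRCh38.p14) gave promoters for 42 of the 48 genes, 51 promoters in all, and none for PSMA7, PSMB1, PSMB6, PSMB7, PSMD4 and PSMG3. The 250 bases before each start were searched on both strands. The E-box CACGTG was found for 3 of the 42 genes, PSMB3, PSMD9 and PSME3, or 7.14%, beside 6.34% of all 35116 promoters. The antioxidant response element core, written TGACNNNGC, was found for 13 of the 42 genes, or 31.0%, beside 10.9% of all promoters. CCAAT was found for 19 of the 42, or 45.2%, beside 32.0% of all promoters. A gene with several promoters was counted once, so the shares of genes and of promoters are not of the same units. Among tested genes with a promoter, 11.7% held the E-box, 16.4% the antioxidant response element core and 42.4% CCAAT.

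The promoters shown are those of PSMG1, the member with the largest fall, of PSME3, the gene with a fall that held an E-box, and of PSMD9 and PSME1, the 2 genes that were higher. Each is the 250 bases before the RefSeq start, read 5′ to 3′ on the strand of the gene, and each matched GRCh37 exactly at 1 place near its gene. They lie at chr21:39183452-39183701 on the minus strand for PSMG1, and on the plus strand at chr17:42833147-42833396 for PSME3, chr12:121888540-121888789 for PSMD9 and chr14:24135944-24136193 for PSME1 (GRCh38.p14). Capitals mark E-boxes, antioxidant response element cores and CCAAT on either strand.
PSMG1: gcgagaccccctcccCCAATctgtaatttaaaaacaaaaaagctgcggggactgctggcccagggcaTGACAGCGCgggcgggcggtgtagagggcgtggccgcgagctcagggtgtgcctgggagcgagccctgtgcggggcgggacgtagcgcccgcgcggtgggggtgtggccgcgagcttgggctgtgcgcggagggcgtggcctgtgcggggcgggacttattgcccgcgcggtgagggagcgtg
PSME3: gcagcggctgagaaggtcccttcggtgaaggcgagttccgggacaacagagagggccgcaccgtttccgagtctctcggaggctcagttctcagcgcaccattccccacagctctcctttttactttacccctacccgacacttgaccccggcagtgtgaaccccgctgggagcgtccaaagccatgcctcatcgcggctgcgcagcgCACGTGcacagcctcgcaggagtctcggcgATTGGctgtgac
PSMD9: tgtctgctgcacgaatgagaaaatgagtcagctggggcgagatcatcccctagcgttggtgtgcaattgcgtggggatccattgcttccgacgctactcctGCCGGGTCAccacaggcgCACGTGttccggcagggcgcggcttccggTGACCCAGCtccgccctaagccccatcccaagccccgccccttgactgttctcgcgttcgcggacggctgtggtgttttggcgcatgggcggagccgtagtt
PSME1: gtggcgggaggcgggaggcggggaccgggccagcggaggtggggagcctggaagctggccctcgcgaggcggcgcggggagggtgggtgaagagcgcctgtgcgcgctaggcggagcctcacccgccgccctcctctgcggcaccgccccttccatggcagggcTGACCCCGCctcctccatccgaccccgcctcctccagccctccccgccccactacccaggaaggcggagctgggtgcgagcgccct
PSMG1 held no E-box in this window, but an antioxidant response element core from 183 to 175 bases before the start and CCAAT from 235 to 231 bases before it. In PSME3 the E-box lay from 42 to 37 bases before the start, and CCAAT on the other strand from 12 to 8 bases before it. PSMD9 held an E-box from 131 to 126 bases before the start, with an antioxidant response element core on each side of it. PSME1 held 1 such core, from 86 to 78 bases before the start.

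Of the 3 genes with an E-box, PSME3 was lower, PSMD9 higher and PSMB3 not past the test. Members with an antioxidant response element core were lower in 3 of 12 tested and those without in 9 of 26, with medians of -0.16 and -0.15. For CCAAT it was 7 of 17 against 5 of 21, with medians of -0.16 and -0.15. Over all tested genes with a promoter, the shares that were lower were 23.0% with the antioxidant response element core and 22.8% without, and 22.6% with CCAAT and 23.0% without. For the E-box, 29.8% of the 996 such genes with it were lower, against 21.9% of the 7493 without. A match of letters is a description of the window and not evidence of binding there.

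Other genes of the pathway were taken from lists of partners. Among 9 other subunits, docking and assembly factors, 3 were lower and none higher, with a median log2 fold change of -0.06. Of all 11411 tested genes, 22.8% were lower and 25.3% higher, with a median of 0.03. KIAA0368, the adaptor ECM29 that holds the core and the regulatory particle together, measured 15.3 and 16.4 RPKM in Ctrl, then 9.26 and 8.69 RPKM upon knockdown of MYCN (-0.76, limma adjusted p = 0.00538). POMP, the chaperone that completes the core, measured 92.7 and 96.6 RPKM in Ctrl, against 94.6 and 91.0 RPKM after MYCN knockdown, a log2 fold change of -0.03 (95% interval -0.15 to 0.10). ADRM1, a ubiquitin receptor of the base, was at -0.06 with overlapping groups.

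Of 7 tested genes for the transcriptional control of the proteasome, 2 were lower and 2 higher, beside 22.8% and 25.3% of all tested genes. NFE2L1 measured 128.2 and 124.5 RPKM in Ctrl, compared with 162.7 and 167.4 RPKM after the knockdown, and rose by a log2 fold change of 0.38 ± 0.04 (SE, n = 2 per group, limma adjusted p = 0.00706). MAFF, a small MAF partner protein, rose by 0.49 (limma adjusted p = 0.00547) from a Ctrl mean of 3.88 RPKM. FBXW7, a substrate receptor of a ubiquitin ligase, fell from 3.52 and 3.79 RPKM to 2.24 and 2.101 RPKM (-0.55, limma adjusted p = 0.00728).

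The ubiquitin genes and the antigen processing genes were described in the same way. RPS27A, which encodes ubiquitin fused to a ribosomal protein, measured 116.5 and 126.0 RPKM in Ctrl, then 91.1 and 84.6 RPKM upon knockdown of MYCN (-0.46, limma adjusted p = 0.0142). In all, 2 of 6 ubiquitin genes were lower, beside 22.8% of all tested genes. IRF1, an interferon-regulated factor that controls immunoproteasome genes, was the only call among 4 tested antigen processing genes. Of all tested genes, 22.8% were lower and 25.3% higher. IRF1 rose from 1.22 and 1.10 RPKM to 1.49 and 1.65 RPKM (0.25, limma adjusted p = 0.0366). The call was lost when any 1 sample was left out, at log2 fold changes of 0.21 to 0.29. It was also lost after quantile normalization (0.13, limma adjusted p = 0.204) and with no filter on low values (limma adjusted p = 0.0581).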

How the data were processed

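RNA-seq had been carried out on 2 Ctrl and 2 MYCN KD samples of BE(2)C cells. The authors used HISAT2 2.1.0 on hg19, featureCounts on RefSeq genes, DESeq2 and, against unwanted variation, RUVSeq. From the normalized counts they calculated RPKM, which were deposited per sample. The RUVSeq variant, the number of factors removed and the strand setting are not given in the sources used here. Whole reads after normalization were recovered from the RPKM steps, with totals of 34142988 and 31976939 reads in Ctrl and 29055819 and 30941778 in MYCN KD. Of the small RNA genes that first set these totals, 93.8% to 94.6% came out whole within 0.02 reads. For every other gene the smallest length that made its values whole was taken. Such a length was found for all 19908 genes above 0 (100%), which is easily reached where few samples hold a read. These totals follow normalization, so counting error covers only part of the error.

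The log2(RPKM + 1) values of the 11411 genes whose mean RPKM reached 1 were fitted in R 4.3.3 by limma 3.58.1 (lmFit, eBayes with trend, 2-sided, Benjamini-Hochberg adjustment, threshold 0.05). This scale understates the change of low genes. The model had 2 residual and 1.49 prior degrees of freedom. It took the 4 deposited values of a gene as independent. No allowance was made for the unwanted variation removed before deposit or for the mirrored replicate deviations (correlation -0.98). The errors, intervals and p-values do not account for either. The members, classes and partner lists were chosen with earlier results of these data known. Values per sample are given for catalytic and replacing beta subunits, activators, inhibitor and chaperones, for the lowest and highest change of each other class, and for any higher member, and of each partner list for POMP, ADRM1, NFE2L1 and the largest fall and rise past the threshold. PSMD14, PAAF1 and the overlapping gene TUBB2B were added after their values were seen. The list for the delivery of substrates is not reported here. Alternatives were another pseudocount, other filters, other scalings, eBayes without trend, a replicate block, each sample left out and limma voom on the recovered reads. Gene positions and exon overlaps came from GENCODE 44 lifted to GRCh37, promoters from RefSeq on GRCh38.p14. Python 3.11.15, numpy 2.4.6, pandas 2.3.3 and matplotlib 3.10.9 were used.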

Additional observations from a re-analysis of the deposited data

How the results depend on the processing

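With 2 samples a group, several calls were lost in fits that left out a sample. In those fits the error was estimated anew from fewer samples, so a lost call does not by itself show dependence on that sample. The fall of MYCN passed the threshold under all alternatives run, with -0.38 after quantile normalization and -0.58 to -0.57 when a sample was left out and the lone sample of its group was assumed to vary like the other group. Of the 15 members past the threshold, 8 (PSMA1, PSMA3, PSMA5, PSMB10, PSMD7, PSME3, PSMG1 and PSMG4) passed under all 12 alternatives. The share of all called genes that did so was not computed. The count of lower members was 13 with another pseudocount, no trend or limma voom, beside 2600, 2584 and 2566 of all 11411 tested genes. It was also 13 with no filter, beside 2594 of 19908 genes, and at a mean RPKM of at least 5, beside 2106 of 7859. At a common total 10 members were lower, beside 2122 of all 11411 tested genes. After quantile normalization 12 were lower, beside 2993 of all 11411. The count of higher members was 3 after quantile normalization, PSMB1 among them, beside 2901 of all 11411 tested genes. PSMD9 and PSME1 lost their higher calls in each fit that left out a sample. With the replicate block 9 members were lower and 0 higher (0 at an unadjusted p), beside 1851 lower and 2077 higher of all 11411 tested genes. Same-numbered samples deviated in opposite directions (correlation -0.98). Unwanted variation had been removed before deposit, so this pattern cannot tell whether same-numbered samples were paired. With the numbers crossed, an alternative added after seeing the data, 39 of the 44 were lower and 3 higher, beside 5262 lower and 5910 higher of all 11411 tested genes. The median of the members was -0.0811 at a common total and -0.104 after quantile normalization, beside 0.0782 and -4.27e-05 for all tested genes. When a sample was left out it was -0.163 to -0.111, beside 0.00532 to 0.0462 for all tested genes. The cause was not tested. Genes that turned direction missed the threshold before and after. At a common total these were PSMB4 at 0.0307, PSMB6 at 0.0296, PSMB7 at 0.00286, PSMD1 at 0.0115, PSMD2 at 0.00847, PSMD4 at 0.00676, PSMD10 at 0.0299, PSMD13 at 0.0544, PSMD14 at 0.0120 and POMP at 0.0324. After quantile normalization they were PSMB4 at 0.00570, PSMB5 at 0.0121, PSMB6 at 0.0679, PSMB7 at 0.0354, PSMD1 at 0.0222, PSMD2 at 0.0436, PSMD4 at 0.0465, PSMD8 at 0.0695, PSMD13 at 0.0495, POMP at 0.0663 and ADRM1 at 0.0557. When a sample was left out, PSMB1 ran from -0.000301 to 0.00254, PSMD1 from -0.134 to 0.0364, PSMD10 from -0.0967 to 0.0405, PSMD13 from -0.0284 to 0.0169, PSMD14 from -0.152 to 0.0584, PSME2 from -0.00508 to 0.0102, POMP from -0.0570 to 0.000951 and ADRM1 from -0.139 to 0.0147.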
